A study of Mus musculus with 80 samples.

Results

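The reporters of mouse chromosome 2 were followed along the chromosome in a pooled integration assay. They were chosen by chromosome and by DNA count: of the 10785 reporters with at least 10 DNA counts in all 8 DNA libraries of their pool, 783 lie on chromosome 2. The deposited table lists 790 reporters on this chromosome, and 7 of them fell short of that minimum. Groups named below by what happened at the highest dose were selected on their RNA counts, and their levels are given as description.

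The cells were EBRTcH3, mouse embryonic stem cells in which the ROSA26 promoter drives tTA, a transactivator under tetracycline control. All groups carried the same kind of barcoded piggyBac tet-Off reporter and came from cells sorted for low eGFP, so integrations with strong eGFP are under-represented in every group. Pools A, B, C and D were each split into 2 cultures, and each culture was treated for 72 h with doxycycline (dox). The doses were 0 ng/ml, 0.01 ng/ml, 0.1 ng/ml and 100 ng/ml. Titles, construct label and plasmid name give the promoter as tet-Off, whereas the protocols also speak of a mouse PGK promoter, and the titles were followed here. The files hold barcode counts and no other transcripts, so marker genes of embryonic stem cells cannot be read.

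The transactivator sits on operator sites beside a weak promoter and drives it, and dox makes it let go of them. An integrated reporter also comes under the influence of the place where it landed: nearby enhancers and promoters can raise its activity, and repressive chromatin can lower it, which is known as a position effect.

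Each reporter is known by a random barcode, read in cDNA for its RNA and in genomic DNA for its abundance. The barcodes of the chains with the highest share of reporters that kept RNA and of reporters that lost it are shown, since the comparison of integrations close to each other rests on these sequences being distinct. Names give the pool and the mm9 position on chromosome 2, sequences are in the letters of the deposited table, and no base is marked by a capital.
C_20573004: atgctaaacaagcgta
C_20589063: taaagaaacagactga
C_20594955: tattgttaactaaact
B_20597051: gtatacgttgaaccag
B_20634909: ttcagctcgattgtat
D_20644371: gtcgtttcgaactttc
B_20656259: cctgctcacgtcttgt
B_20660550: ttgattcgacgcttat
C_103134791: gggcgtatgtatcttt
D_103134916: actctaatatactggt
B_103144628: cggggacactgactgt
D_103149593: ttaacctatcgttatg
C_103196641: ttgcttaaggaaaacc
A_103198149: ttaacaatccacgaga
The first 8 belong to the chain in which every reporter kept RNA and the last 6 to the chain in which every reporter lost it. Within the first chain any 2 barcodes differed by at least 7 edits, and within the second by at least 8. No 2 barcodes of chromosome 2 reporters in the same pool were within 2 edits of each other. A barcode of another pool was shared by 57 of the 783 reporters, and in 0 of these cases did both copies lie within 100 kb of each other.

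Pool A contributed 161 chromosome 2 reporters, pool B 137, pool C 252 and pool D 233. On the plus strand lay 371 of them, and 412 lay on the minus strand. They reached from position 3346587 to position 181428040, with a median distance of 108903 bp between neighbours. The widest stretch without a reporter, chr2:174758293-177817908, measured 3059615 bp. Of the reporters just inside the DNA minimum, those at 129068111 (pool C) and 90951566 (pool D) had a lowest DNA count of 12, and that at 4522320 (pool C) had 13. Just outside were those at 158622339 (pool D) with 9 and at 152379983 (pool C) and 77360066 (pool D) with 8.

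RNA libraries held 729552 to 1840870 counts over all reporters, and DNA libraries 928128 to 1571280. Chromosome 2 took 6.55% to 8.36% of the DNA counts of a library, with a median of 233 to 528 per reporter. It took 6.13% to 8.73% of the RNA counts at dox 0 and 2.74% to 12% at dox 100. The level of a reporter is the log2 of its share of the RNA library over its share of the DNA library, with a pseudocount of 1 count, averaged over the 2 cultures. A level of 0 is the mean of all reporters of that pool at that dose, so that levels rank reporters within a dose and are not subtracted between doses. For a reporter without RNA, the level is set by the pseudocount and by its DNA count. Counts are PCR reads without molecular identifiers, so they carry counting error and more, and the 2 cultures of a pool are technical replicates per the labels: p-values over them measure the spread between such cultures.

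Without dox nearly every chromosome 2 reporter gave RNA, and at the highest dose about as many had lost it as in the other parts of the genome. RNA was absent from both cultures for 1 of the 783 reporters at dox 0, for 3 at dox 0.01, for 123 at dox 0.1 and for 386 at dox 100. At dox 100 RNA was present in both cultures for 245 reporters, called kept here, and in 1 culture for 152. The 386 without RNA in either culture are called lost. By counting error alone a count of 0 allows up to 3 counts, and lost means no RNA read at this depth. Cultures could differ by more: the 152 reporters with 0 counts in 1 culture had a median of 60 in the other, and at most 306. Fold bounds given below take 3 counts over both cultures as the floor and hold for counting error alone.

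Among all 10785 reporters 30.7% were kept, and on chromosome 2 the share was 31.3%. The share with RNA in 1 culture was 19.4% on chromosome 2 and 21.0% among all. The lost share was 49.3% on chromosome 2 and 48.4% among all. All 3 shares on chromosome 2 were thus near those of the whole table.

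Kept reporters spanned a wide range of counts. The lower of their 2 RNA counts at dox 100 ran from 1 to 32901 with a median of 156. A reporter with RNA in 1 culture had a median of 60 counts there, and at most 306. The median DNA count, averaged over libraries, was 375 for kept reporters, 321 for those with RNA in 1 culture and 256.75 for lost ones. Reporters were also split into 4 classes of near equal size by the mean of their 2 DNA counts at dox 100. In ascending order of that count, the kept share was 23.5%, 23.9%, 38.1% and 39.8%. The part of DNA abundance in the kept share was not tested.

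Most losses appeared in the last dose step. Of the 386 lost reporters, 180 still had RNA in both cultures at dox 0.1, 99 had it in 1 culture and 107 in neither. Of the 245 kept reporters, 233 had RNA in both cultures at dox 0.1, 11 in 1 culture and 1 in neither.

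The RNA to DNA ratio at each dose was tested against dox 0 per reporter with edgeR's quasi-likelihood test, with Benjamini-Hochberg adjustment over all reporters of a pool and a threshold of 0.05. Since RNA libraries were scaled to each other, "higher" and "lower" are relative to that scaling, and a drop common to every reporter would not be seen. The SE of a change grows unreliable where almost no RNA was read. At dox 100, 86 chromosome 2 reporters were higher than at dox 0 (11%, against 10.9% of all reporters) and 408 were lower (52.1%, against 50.4%). The share of lower calls in each pool was 57.1% (A), 46.7% (B), 53.6% (C) and 50.2% (D). The shares on chromosome 2 were thus near those of the whole table.

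The median fitted log2 change at dox 100 was -4.49 on chromosome 2 and -4.12 over all reporters. Without the first dox 100 culture the chromosome 2 median was -7.61, and without the second -6.69. With reporters without RNA set at their bound of 3 counts over both cultures, and scaling by library totals, the medians were -3.78 and -3.51. Under scaling by library totals the fitted medians were -5.39 and -5.15, with 44 reporters higher and 486 lower. All 86 higher reporters were kept. Of the 408 lower ones, 361 were lost, 19 had RNA in 1 culture and 28 were kept. With RNA in both cultures and no call in either direction there were 131 reporters.

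At dox 0.1, 76 chromosome 2 reporters were higher than at dox 0 (9.71%, against 9.07% of all) and 149 were lower (19.0%, against 19.8%). The median log2 change was -0.80 both on chromosome 2 and over all reporters. The split of calls depended on the scaling: with DESeq2's size factors 41 were higher and 247 lower, and with library totals 37 and 274. Without the first dox 0 culture the counts were 41 higher and 96 lower, and without the second 43 and 93.

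At dox 0.01 edgeR's test called 0 chromosome 2 reporters in either direction, against 0.0185% of all reporters higher and 0% lower. An unadjusted p under 0.05 was found for 39 reporters, and the lowest adjusted p by edgeR was 0.183. DESeq2's Wald test called 2 higher and 4 lower. The median log2 change at this dose was -0.12, and it was -0.32 with DESeq2's size factors and -0.31 with library totals.

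The spread between chromosome 2 reporters of a pool widened along the dose series. It is given as the SD shared by both cultures, the square root of the covariance between the levels in the 2 cultures. This shared SD was 1.89 ± 0.17 at dox 0, 2.21 ± 0.14 at dox 0.01, 3.14 ± 0.08 at dox 0.1 and 3.48 ± 0.22 at dox 100 (SD, n = 4 pools). It includes reporters without RNA in either culture, 1 at dox 0 and 386 at dox 100. Their levels are set by the pseudocount and the DNA count, and their part in the widening was not tested. The 10 chromosome 2 reporters of a pool with the most RNA counts at a dose held 30.5% ± 4.14 of the chromosome's RNA counts at dox 0, 34.2% ± 4.33 at dox 0.01, 61.4% ± 9.49 at dox 0.1 and 76.3% ± 7.85 at dox 100 (SD, n = 4 pools). The RNA of the chromosome thus came from fewer reporters at the higher doses.

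**Figure D1:**
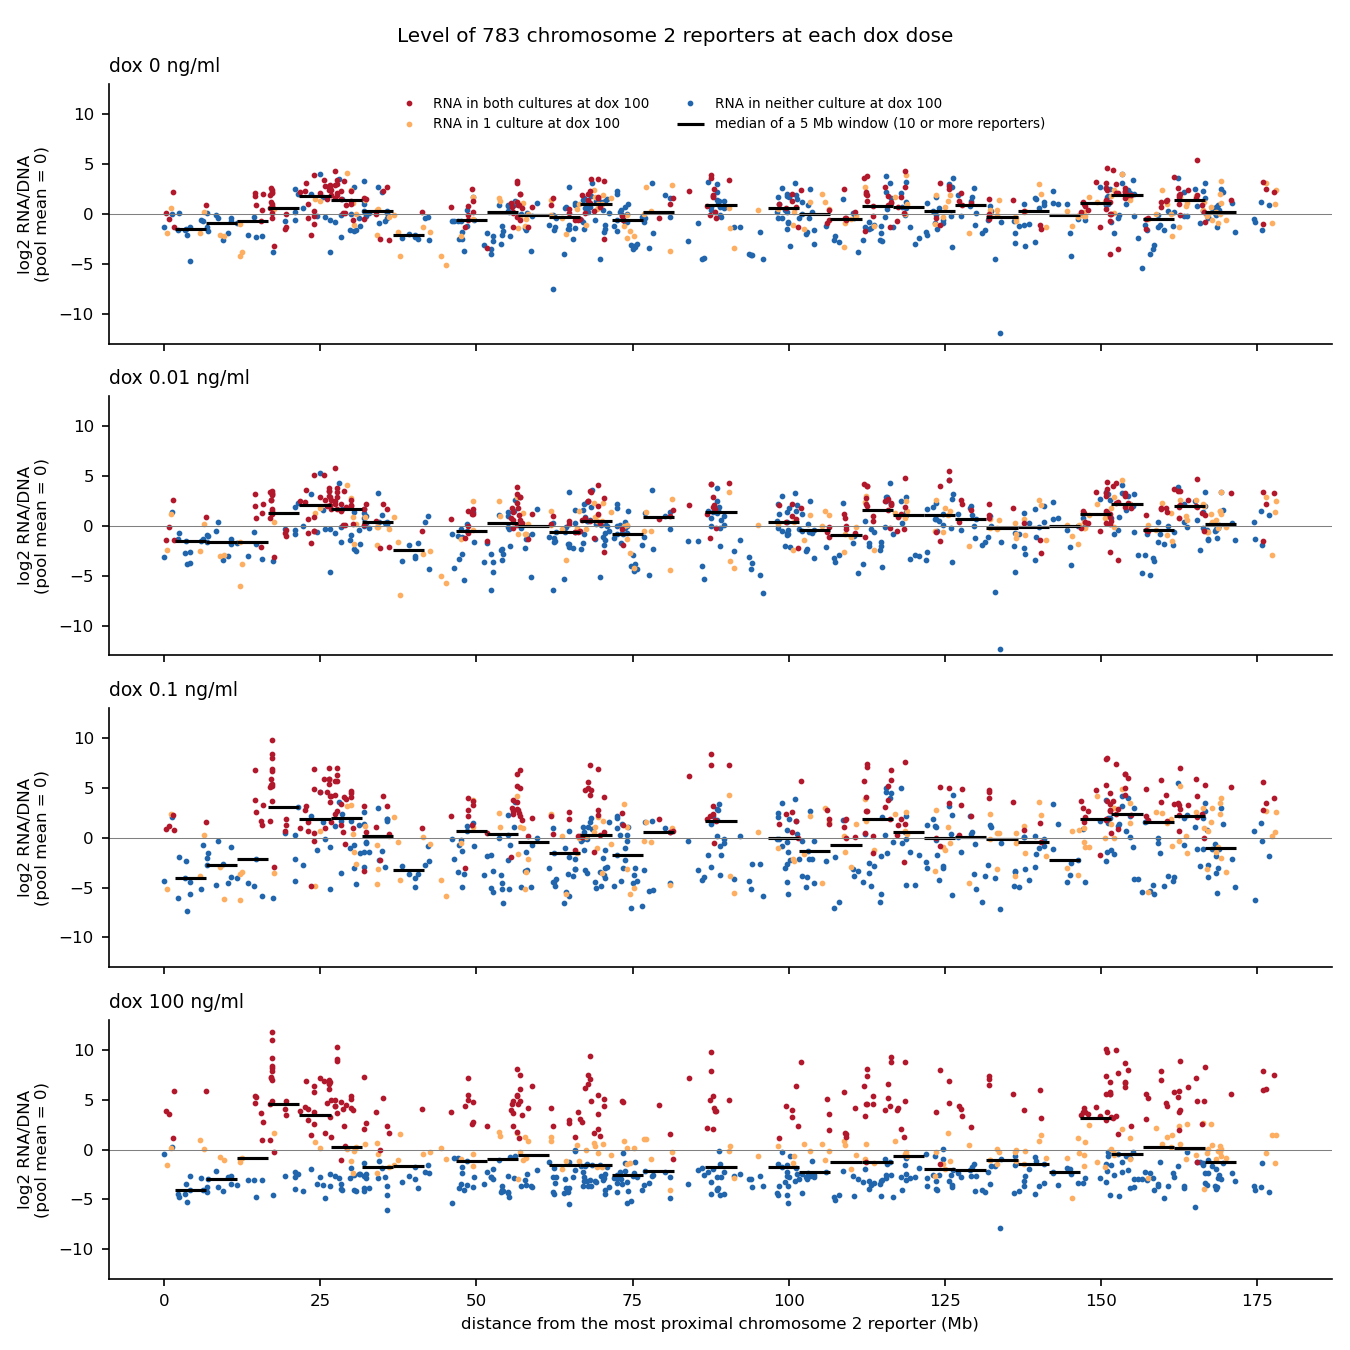
Level (log2 RNA/DNA, pool mean at 0) of the 783 chromosome 2 reporters against their distance from the most proximal reporter in Mb, at the 4 dox doses from 0 to 100 ng/ml, with colours for RNA in both, 1 or neither culture at dox 100 and bars for the medians of 5 Mb windows with 10 or more reporters. The points draw apart at the higher doses, with an SD shared by both cultures (mean of the pools) of 1.89 at dox 0 and 3.48 at dox 100.

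No difference between chromosome 2 as a whole and the other chromosomes passed the spread between pools. At dox 0 its mean level minus that of the other chromosomes was -0.12 in pool A, 0.33 in pool B, 0.32 in pool C and 0.28 in pool D. The mean of 0.20 ± 0.21 (SD, n = 4 pools) gave p = 0.25 in a two-sided exact permutation test that flips the signs of the 4 pools. That test has 16 arrangements, and the smallest p it allows is 2 in 16, which lies above 0.05. At dox 100 the differences were -0.46 (A), 0.38 (B), 0.04 (C) and 0.14 (D), with a mean of 0.03 ± 0.35 (SD, n = 4 pools, exact p = 0.875).

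At dox 0.01 the mean difference was 0.20 ± 0.24 (SD, n = 4 pools, exact p = 0.25), and at dox 0.1 it was 0.18 ± 0.46 (SD, n = 4 pools, exact p = 0.5). Pool A was the only pool below 0 at all 4 doses. The lost share was 55.9% on chromosome 2 and 46.5% elsewhere in pool A, 43.8% and 45.4% in pool B, 48.4% and 50.1% in pool C, and 48.9% and 49.9% in pool D. The mean difference of 1.30 percentage points ± 5.42 (SD, n = 4 pools) gave an exact p of 1, and without pool A it was -1.41 percentage points.

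The mean difference between the strands was smaller than its SD between pools at each dose. With 4 pools the exact test cannot pass the threshold of 0.05 at any size of difference. It therefore leaves undecided whether the strand of the integration made a difference. Plus minus minus strand, the mean levels differed by 0.18 ± 0.19 at dox 0, by 0.09 ± 0.31 at dox 0.01, by 0.15 ± 0.39 at dox 0.1 and by 0.29 ± 0.67 at dox 100 (SD, n = 4 pools, lowest exact p 0.25). At dox 100 pool D alone had a difference of 1.18, and without it the mean was -0.01.

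**Figure D2:**
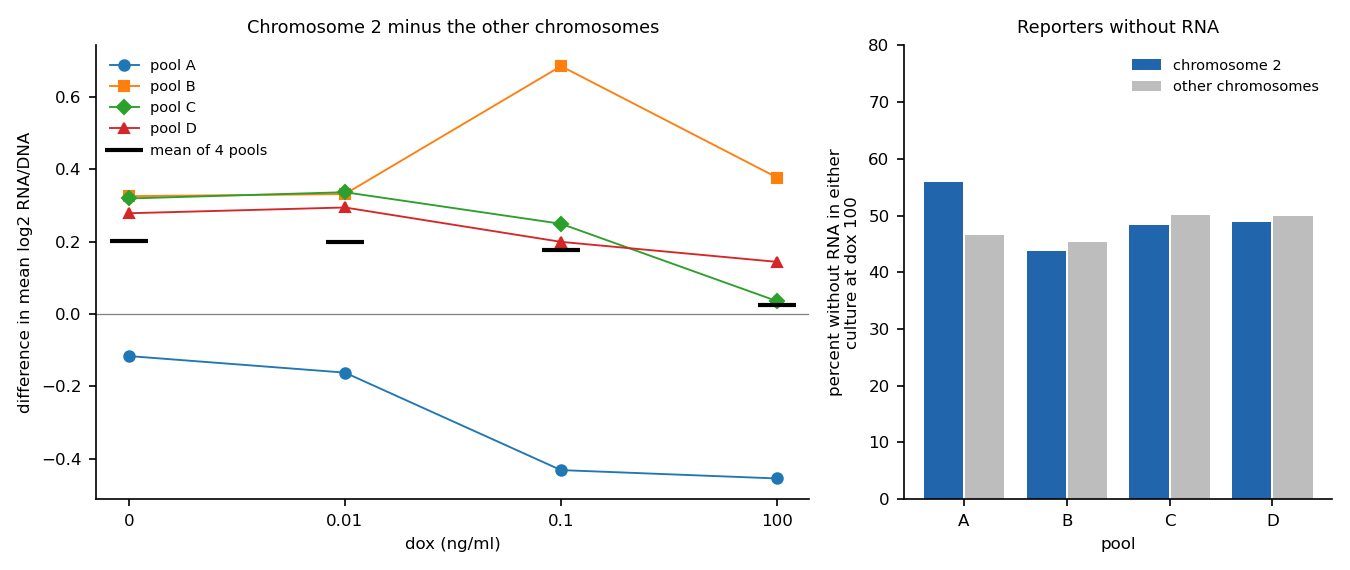
Left, mean level (log2 RNA/DNA) of chromosome 2 reporters minus that of the other chromosomes in pools A to D at each dox dose, with black bars for the mean of the 4 pools. Right, percent of reporters without RNA in either culture at dox 100 on chromosome 2 and on the other chromosomes, by pool. Pool A lies below 0 at each dose and has the highest lost share, 55.9%.

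In every pool kept reporters had the higher mean level at dox 0. It exceeded that of lost reporters by 1.23 in pool A, 1.43 in pool B, 1.30 in pool C and 1.71 in pool D. The mean difference was 1.42 ± 0.21 (SD, n = 4 pools), positive in 4 of 4 pools, with the smallest exact p that 4 pools allow. At dox 0.01 the mean difference was 1.93 ± 0.24 and at dox 0.1 4.47 ± 0.39 (SD, n = 4 pools). The middle 50% of kept reporters had dox 0 levels between 0.05 and 2.19, and that of lost reporters between -1.60 and 1.01, so the groups overlapped at dox 0.

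Along the chromosome, levels were described by windows. The chromosome was cut into 37 windows of 5 Mb, of which 31 held at least 10 reporters. Their median level at dox 0 ran from -2.09 to 1.89, and 19 of the 31 had a median above 0. The highest medians at dox 0 were 1.89 in the window that starts at 155000001, 1.86 in that from 25000001 and 1.43 in that from 165000001. The lowest were -2.09 in the window from 40000001, -1.52 in that from 5000001 and -0.90 in that from 10000001.

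The kept share of these 31 windows ran from 0% to 69.6%. At least 50% of reporters were kept in 4 windows: 69.6% of 23 in the window from 20000001, 66.7% of 30 in that from 25000001, 52.9% of 34 in that from 150000001 and 52.8% of 36 in that from 30000001. None of 11 was kept in the windows from 5000001 and from 145000001, and 7.14% of 28 were kept in that from 170000001. Of these 28, 11 had RNA in 1 culture and 53.6% were lost. The lost share was 81.8% in the window from 5000001 and 63.6% in that from 145000001. In 18 of the 31 windows at least 50% of reporters were lost.

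A high level at dox 0 and a high kept share went together in part. Over the 31 windows the 2 measures had a Pearson r of 0.61 and a Spearman rho of 0.54, with reporters of the same libraries behind both. The window from 155000001, first at dox 0, kept 35.5% of its 31 reporters. The window from 20000001, first in kept share, had a dox 0 median of 0.61. Over single reporters, the rank correlation of position and level was 0.12 at dox 0 and 0.01 at dox 100, so there was little slope from one end of the chromosome to the other.

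Of the 4 high windows, 3 adjoin and form 1 region, in which the reporters lie between 20317789 and 34693765. There 55 of 89 reporters were kept (61.8%), against 190 of 694 on the rest of the chromosome (27.4%). By pool the kept share was 56.2% in the region and 24.8% outside it in pool A, 68.4% and 33.9% in pool B, 66.7% and 24.7% in pool C, and 52.4% and 28.3% in pool D. The region was chosen on these values, so no test is given. Median DNA counts at dox 100 in the region and outside it were 408.25 and 440 in pool A, 475 and 446.75 in pool B, 276.5 and 236.5 in pool C, and 293.5 and 253.75 in pool D.

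The region was not made by its densest group alone. Without the 8 reporters of the chain described below, 47 of 81 were kept (58.0%), a setting added after the data were seen. Of the 89 reporters, 18 were higher and 34 lower at dox 100 than at dox 0. Without the chain, 11 of 81 were higher and 34 lower. Among all 10785 reporters 10.9% were higher and 50.4% lower. The median level in the region was 1.27 at dox 0, against 0.17 on the rest of the chromosome. At dox 100 the median was 3.25 in the region, 1.66 without the chain and -1.28 on the rest of the chromosome.

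**Figure D3:**
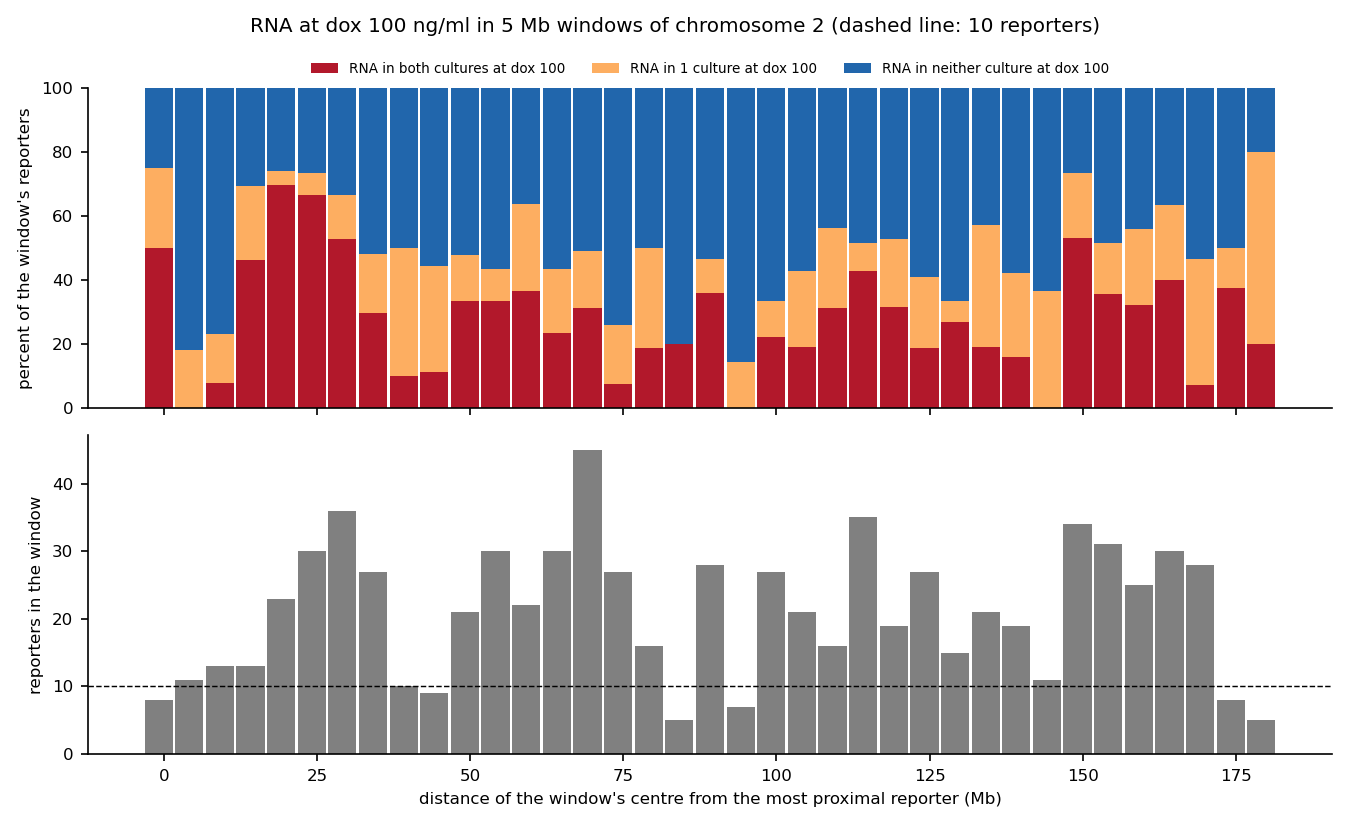
Top, percent of the reporters of each 5 Mb window with RNA in both cultures, in 1 culture or in neither culture at dox 100, against the distance of the window's centre from the most proximal reporter in Mb. Bottom, number of reporters per window, with a dashed line at 10. The 3 adjoining windows with the kept shares of 69.6%, 66.7% and 52.8% stand near the left end.

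Chains are runs of reporters with at most 50 kb between neighbours. Of the 783 reporters, 395 had no neighbour that near, 342 lay in 138 groups of 2 to 4, and 46 lay in 8 chains of 5 or more. The 8 chains held reporters of 3 or 4 pools each, so they joined integrations from separate cell pools. Among the 146 groups of 2 or more, 27 were kept throughout, 23 were lost throughout, and 45 held kept and lost reporters together.

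The longest chain, chr2:20573004-20660550, held 8 reporters within 87.5 kb, 4 from pool B, 3 from pool C and 1 from pool D. All 8 were kept, and 7 of them were higher at dox 100 than at dox 0. C_20589063, on the minus strand, had 21677 and 18901 RNA counts in the 2 cultures at dox 100, against 345 and 371 at dox 0. It had 172 and 178 DNA counts at dox 100, against 118 and 99 at dox 0. The RNA counts at the 2 doses did not overlap, and the fitted log2 change was 6.84 ± 0.24 (SE, edgeR adjusted p = 1.06e-08).

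B_20597051, from another pool and on the plus strand, had 32901 and 52095 RNA counts at dox 100, against 2188 and 2647 at dox 0. Its log2 change was 6.09 ± 0.41 (SE, edgeR adjusted p = 1.23e-06). In both of these reporters the counts at dox 100 lay far above those at dox 0. By library totals the RNA to DNA ratio was 56.9-fold higher in C_20589063 and 27.2-fold higher in B_20597051. C_20573004 had 2754 and 3017 RNA counts at dox 100 against 441 and 548 at dox 0, and C_20594955 had 2428 and 2833 against 131 and 142.

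Other members of the chain were higher by less. B_20634909 had 1980 and 2289 RNA counts at dox 100 against 930 and 916 at dox 0, B_20656259 had 4734 and 5586 against 1735 and 2061, and B_20660550 had 2953 and 4166 against 627 and 671. D_20644371 had 74 and 71 against 48 and 57, and its log2 change of 2.76 ± 1.13 (SE) had an edgeR adjusted p of 0.0515. The 7 called reporters had log2 changes between 3.41 and 6.84. At dox 0 the levels of the 8 ran from -0.44 to 2.40.

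The chain chr2:103134791-103198149 had the opposite outcome. It held 6 reporters from all 4 pools within 63.4 kb, and every one of them was lost and lower at dox 100. B_103144628 had 0 and 0 RNA counts at dox 100, against 2466 and 2241 at dox 0, with 879 and 1120 DNA counts at dox 100. By library totals it was at least 948-fold lower, with 3 counts over both cultures as the floor (edgeR adjusted p = 1.33e-06).

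The other 5 had 29 to 634 RNA counts at dox 0 and 0 at dox 100 in both cultures. C_103196641 had 491 and 634 RNA counts at dox 0 and was at least 239-fold lower. C_103134791 had 93 and 75 and was at least 41.7-fold lower, and D_103134916, with 42 and 29, was at least 24.9-fold lower. The bounds of D_103149593 and A_103198149 were 179-fold and 89.8-fold. At dox 0 the median level of this chain was -0.26, with members on both sides of the pool mean.

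The other 6 chains were mixed or kept in part. At chr2:35300545-35353737, 2 of 6 reporters were kept and 4 lost. At chr2:52747427-52819369, 2 of 5 were kept, 2 had RNA in 1 culture and 1 was lost. At chr2:59885822-59918636, 4 of 5 were kept and 1 had RNA in 1 culture.

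At chr2:68127480-68205390, 2 of 5 were kept and 3 lost, with the 2 kept reporters at the proximal end. At chr2:135441650-135548616, 3 of 5 were kept and 2 had RNA in 1 culture. At chr2:154165315-154256423, 4 of 6 were kept and 2 lost. Each of these chains thus held reporters with different outcomes within 107 kb.

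In the chain at 135441650, the proximal 3 reporters were higher at dox 100 and the distal 2 had no call. D_135441650 had 4291 and 3219 RNA counts at dox 100 against 707 and 641 at dox 0. C_135441744, from another pool, had 2674 and 2847 against 378 and 408. Their log2 changes were 4.19 ± 0.38 and 4.51 ± 0.31 (SE, edgeR adjusted p = 6.75e-06 and 1.03e-06). B_135548616, at the distal end, had 68 and 0 RNA counts at dox 100, against 963 and 975 at dox 0.

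**Figure D4:**
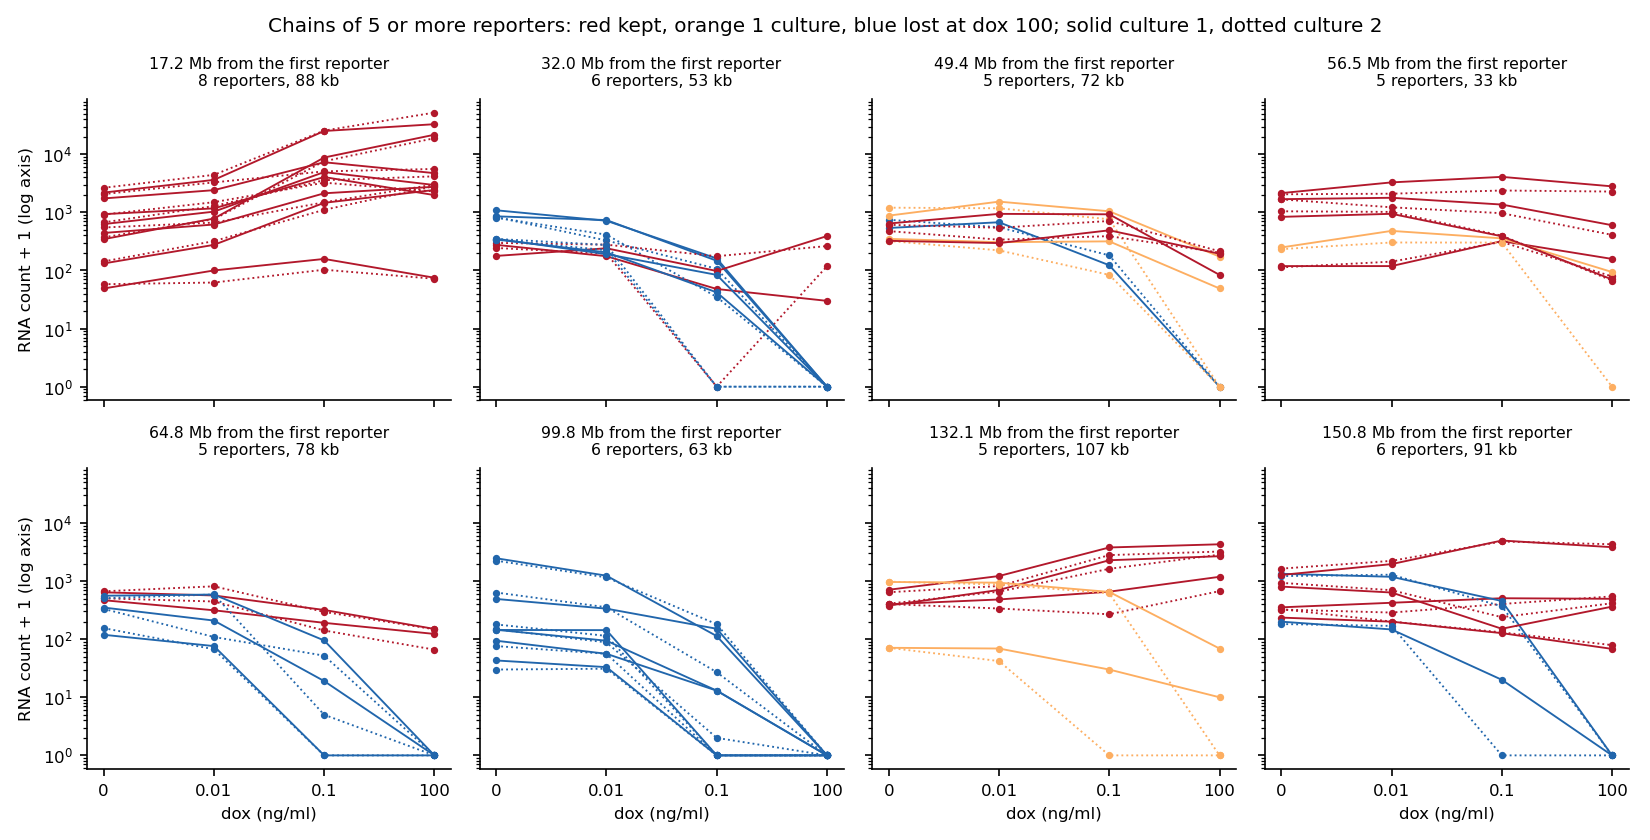
RNA count plus 1 (log axis) of each reporter against dox dose in ng/ml, 1 panel for each of the 8 chains of 5 or more reporters in order along the chromosome, with solid lines for culture 1 and dotted lines for culture 2. In the first panel all 8 reporters keep RNA at dox 100, with 71 to 52095 counts, and in the panel of the 6 lost reporters every line ends at 0 counts.

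Reporters close to each other had similar levels, and more so at the higher doses. Over the 118 pairs less than 10 kb apart, Pearson's r between the levels of a pair was 0.34 at dox 0, 0.39 at dox 0.01, 0.63 at dox 0.1 and 0.62 at dox 100. Over the 452 pairs 10 to 100 kb apart it was 0.22, 0.36, 0.47 and 0.35, and over the 3647 pairs 100 kb to 1 Mb apart it was 0.19, 0.23, 0.17 and 0.07. Pairs share reporters and libraries, and these values are descriptions. The likeness reached further at dox 0 and 0.01 than at dox 100, relative to its value under 10 kb.

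Pairs from different pools share no library. For the 93 such pairs under 10 kb, r was 0.34 at dox 0, 0.34 at dox 0.01, 0.60 at dox 0.1 and 0.59 at dox 100. In terms of outcome, 47 of the 118 pairs were both kept (39.8%), 17 both lost (14.4%), and 20 held 1 kept and 1 lost reporter (16.9%). Among pairs 100 kb to 1 Mb apart, 14.6% were both kept, 23.0% were both lost and 30.1% held 1 of each. Pairs under 10 kb were thus more often both kept, and less often both lost, than these distant pairs.

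Integrations 1 bp apart in different pools, on opposite strands, were found at 3 places, and all 6 reporters were kept. At 29691035 the pool A reporter had 300 and 493 RNA counts at dox 100 against 1714 and 1878 at dox 0, and the pool B reporter at 29691036 had 1222 and 1653 against 2558 and 2866. At 17860456 the pool A reporter had 211 and 456 at dox 100 against 928 and 1132 at dox 0, and the pool D reporter at 17860457 had 684 and 242 against 1182 and 1167. RNA libraries at dox 100 were shallower. The RNA to DNA ratio was called higher for the pool B reporter, B_29691036, with a log2 change of 1.64 ± 0.27 (SE, edgeR adjusted p = 0.00032). Its DNA counts were 476 and 716 at dox 100 against 800 and 824 at dox 0. No call was made for the other 3 of these reporters. A higher call is relative to the scaling: on chromosome 2 there were 86 at dox 100, and 44 with library totals.

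At the third place the RNA to DNA ratio was higher than at dox 0 in both reporters. The pool C reporter at 154718779 had 269 and 104 RNA counts at dox 100 against 54 and 70 at dox 0, and the pool D reporter at 154718780 had 163 and 348 against 101 and 109. A pool A reporter at 154717685, on the minus strand and within 1095 bp of both, had 2776 and 3736 at dox 100 against 106 and 97 at dox 0. All 3 were called higher, with log2 changes of 6.69 ± 0.40 (A), 3.69 ± 0.79 (C) and 2.94 ± 0.80 (D) (SE, highest edgeR adjusted p = 0.0074).

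Close neighbours could also part. At 65680892 the pool A reporter had 149 and 86 RNA counts at dox 100 against 1596 and 1863 at dox 0, and 218 bp away at 65681110 the pool C reporter had 0 and 0 against 369 and 447. The lost reporter had 550 and 606 DNA counts at dox 100. At 35300545 a pool A reporter was kept with 29 and 117 counts, while pool D reporters 533 and 575 bp away had 0 and 0 at dox 100 against 854 and 825, and 1085 and 811, at dox 0.

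The next closest pairs of this kind were 777 and 961 bp apart. At 55064028 the pool B reporter had 53 and 145 RNA counts at dox 100, and at 55063251 the pool C reporter had 0 and 0 after 44 and 41 at dox 0. At 156021758 the pool B reporter had 36 and 14, against 1937 and 2062 at dox 0, and at 156020797 the pool D reporter had 0 and 0, against 47 and 48. The lost reporters at 55063251 and 156020797 had 95 and 207, and 71 and 24, DNA counts at dox 100. Their kept neighbours had 855 and 601, and 139 and 789. Whether low DNA abundance accounts for the absent RNA was not tested. The kept reporter had the higher level at dox 0 in the pairs 218 and 961 bp apart and the lower one in the pairs 533, 575 and 777 bp apart.

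The kept share went with the density of integrations. It was 20.5% of the 395 reporters with no other chromosome 2 reporter within 50 kb, 38.3% of the 311 with 1 or 2, and 58.4% of the 77 with 3 or more. Reporters with 3 or more neighbours minus those with none, the kept share differed by 54.2 percentage points in pool A, 24.8 in pool B, 32.0 in pool C and 42.7 in pool D. The mean was 38.4 ± 12.8 (SD, n = 4 pools), positive in 4 of 4 pools, with the smallest exact p that 4 pools allow. Comparisons by number of neighbours were chosen after the data were seen, so an exact p for them is not support. For 1 or 2 neighbours minus none, the difference was 13.4 percentage points in pool A, -0.429 in pool B, 23.2 in pool C and 25.8 in pool D, with a mean of 15.5 ± 11.9 (SD, n = 4 pools, exact p = 0.25).

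Median DNA counts also went up with the number of neighbours: 285.5 with none, 323 with 1 or 2 and 390 with 3 or more. Among reporters with at least 100 DNA counts in every library the mean difference was 29.2 percentage points, and without the 8 chains of 5 or more it was 39.2. The part of DNA abundance in this difference was not tested. Median levels at dox 0 were -0.06 with no neighbour, 0.48 with 1 or 2 and 1.17 with 3 or more.

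Strong reporters without a neighbour within 50 kb were found as well. D_105322645, alone within 50 kb, had 6490 and 3079 RNA counts at dox 100 against 782 and 714 at dox 0. A_20455417 had 3352 and 4390 against 2080 and 2325. These were the 2 highest levels at dox 100 among the 395 reporters with no neighbour, 8.74 and 7.32. Next came C_20511968 with 7.23, which lies between A_20455417 and the longest chain. A_20455417 is thus alone by the 50 kb limit, but it lies in the region with the high kept share.

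**Figure D5:**
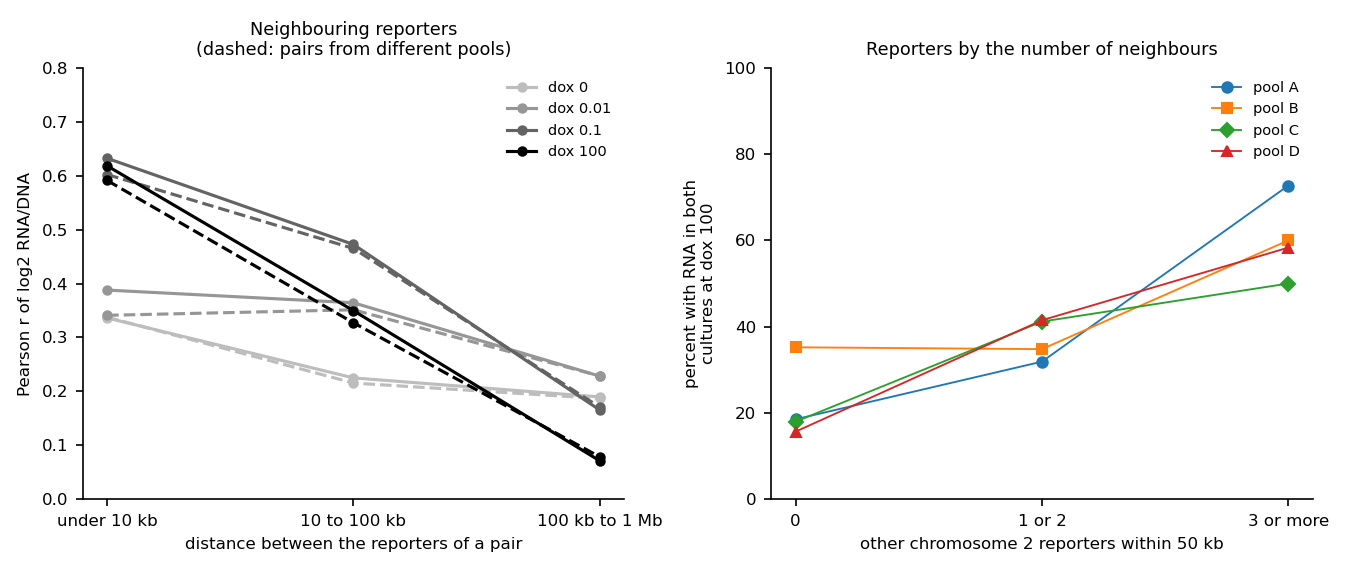
Left, Pearson r of log2 RNA/DNA between chromosome 2 reporters against the distance class of the pair at each dox dose, with dashed lines for pairs from different pools. Right, percent of reporters with RNA in both cultures at dox 100 against the number of other chromosome 2 reporters within 50 kb, by pool. Under 10 kb r was 0.34 at dox 0 and 0.62 at dox 100, and with 3 or more neighbours the kept share was 50.0% or more in each pool.

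The strongest reporters at dox 0 were spread over the chromosome and differed in what dox did to them. The highest level was 5.46 ± 0.29 (SD, n = 2 cultures), of B_168738379. It had 328 and 345 RNA counts at dox 100, against 7267 and 8081 at dox 0, and its log2 change was -3.09 ± 0.39 (SE, edgeR adjusted p = 5.26e-05). C_154256423 came next with 4.59 ± 0.34, and C_155299930 with 4.45 ± 0.77 (SD, n = 2 cultures).

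C_154256423, at the distal end of the chain chr2:154165315-154256423, had 3828 and 4296 RNA counts at dox 100, against 1272 and 1636 at dox 0. C_155299930 had 235 and 180 at dox 100, against 6938 and 7345 at dox 0. The levels of these 2 at dox 0 lay within the spread between their cultures, yet C_154256423 was higher at dox 100 by 2.33 ± 0.40 and C_155299930 was lower, with a log2 change of -3.97 ± 0.44 (SE, edgeR adjusted p = 0.000399 and 2.08e-05).

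Among the other 7 of the 10 strongest at dox 0, C_121943288 had 3196 and 2038 RNA counts at dox 100 against 2562 and 2847 at dox 0, and B_27369919 had 187 and 326 against 971 and 1113. B_30633229 had 8 and 276 at dox 100 against 1591 and 1642 at dox 0, with 25 and 167 DNA counts at dox 100. The pair C_32555784 and D_156668179 had RNA in 1 culture at dox 100, with 55 and 40 counts. A_156670358 had 0 and 0 at dox 100 against 695 and 992 at dox 0, and C_28369862 had 0 and 0 against 2308 and 2482. In all, 6 of the 10 were kept, 2 had RNA in 1 culture and 2 were lost.

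The 10 strongest at dox 100 were mostly other reporters. Only C_154256423 was in both lists, and 3 of the 10 belong to the chain at 20573004: C_20589063, B_20597051 and C_20594955, with levels of 11.77, 10.97 and 9.19. Pool C gave 4 of them, pools B and D 3 each and pool A 0. By the level at dox 0, the mean of both cultures, they ranked between 2 and 329 of the 783. All 10 had more RNA counts at dox 0.1 than at dox 0 in both cultures.

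C_31020033 had 3511 and 3401 RNA counts at dox 100 against 1030 and 1084 at dox 0. D_154068584 had 5477 and 7514 against 852 and 1276, and D_155708446 had 13367 and 12353 against 3505 and 3559. These 3 had levels of 10.29 ± 0.11, 10.13 ± 0.76 and 9.97 ± 0.51 at dox 100 (SD, n = 2 cultures), which overlap within the spread between cultures.

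The list was completed by 3 more. B_90953224 had 6975 and 9818 RNA counts at dox 100 against 3022 and 3572 at dox 0. B_71585253 had 16070 and 22017 against 3522 and 3854, and D_119683707 had 8843 and 8077 against 919 and 825. Their log2 changes were between 3.30 and 5.33.

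Single reporters weighed heavily on the chromosome's RNA at dox 100. In pool B, B_20597051 held 39.1% and 43.9% of the chromosome 2 RNA in the 2 cultures at dox 100, and chromosome 2 held 11.5% and 12% of the RNA of the pool, against 6.82% and 6.84% at dox 0. In pool C, C_20589063 held 25.6% and 25% of the chromosome 2 RNA. In pool A, where the strongest reporter held 13.3% and 12.3%, chromosome 2 held 2.74% and 3.11% of the pool's RNA at dox 100, against 6.13% and 6.17% at dox 0.

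The largest fitted increase at dox 100 was that of A_155990228, with 550 and 790 RNA counts at dox 100 against 18 and 21 at dox 0. It had 231 and 83 DNA counts at dox 100, against 375 and 375 at dox 0. Its log2 change was 7.90 ± 0.97 (SE, edgeR adjusted p = 4.73e-05). A_154717685 and D_170065365 were also among the 5 largest, beside the pair from the longest chain. D_170065365 had 3920 and 3895 RNA counts at dox 100 against 133 and 154 at dox 0, and was higher by 6.20 ± 0.51 (SE, edgeR adjusted p = 4.92e-06).

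The 5 largest decreases were of reporters without RNA at dox 100 and with over 1000 RNA counts in each culture at dox 0. Their levels at dox 0 ran from 0.28, of A_38963859, to 3.99, of C_28369862. A_168351336 had 0 and 0 RNA counts at dox 100 against 7111 and 7952 at dox 0, which by library totals is at least 4068-fold lower (edgeR adjusted p = 4.50e-07). A_154864256 had 0 and 0 against 4140 and 5036, at least 1867-fold lower, and A_38963859 had 0 and 0 against 1388 and 1700, at least 1136-fold lower. C_28369862 was at least 1041-fold lower and B_103144628 of the lost chain, also among the 5, at least 948-fold. Over the 384 lost reporters with more than 3 RNA counts at dox 0, the bound had a median of 65.1-fold. These bounds, with 3 counts over both cultures as the floor, hold for counting error alone.

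Both A_168351336 and A_38963859 still had RNA at dox 0.1, A_168351336 with 363 and 594 counts and A_38963859 with 879 and 1241. At dox 0.1 the largest decreases were those of A_79844170, with 0 and 0 RNA counts against 552 and 633 at dox 0, A_27481021, with 0 and 0 against 441 and 618, and D_132939577, with 0 and 0 against 265 and 271. By library totals A_79844170 was lower by at least 378-fold, A_27481021 by 344-fold and D_132939577 by 303-fold. A_27481021 had 66 and 0 at dox 100, and its call at dox 0.1 was lost without the first or the second dox 0 culture (edgeR adjusted p = 0.0639 and 0.0812), without the second dox 0.1 culture (0.0540) and with DNA as an offset (0.0581).

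The largest increases at dox 0.1 were those of C_20589063, with 8790 and 7580 RNA counts, and C_20594955, with 1459 and 1105. Their log2 changes were 6.51 ± 0.24 and 6.14 ± 0.81 (SE, edgeR adjusted p = 1.85e-08 and 0.00032). B_137118207 was called as well, with 47 and 0 RNA counts at dox 0.1 against 2 and 0 at dox 0. Without the culture that held the 47 counts its log2 change was -2.46, so this call rests on 1 library.

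B_137118207 was also the lowest reporter at dox 0, with 2 and 0 RNA counts for 10944 and 10880 DNA counts. Next was C_65665359, with 0 RNA counts in every library and 198 and 281 DNA counts at dox 0. C_159894743 had 3 and 5 RNA counts at dox 0, B_48482241 had 17 and 10, and A_7540186 had 14 and 20. Of these 5, B_48482241 had 0 and 83 RNA counts at dox 100, and the other 4 had 0 and 0.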

How the data were processed

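Barcode reads of RNA and genomic DNA were deposited by the authors as raw counts per reporter, not normalized, per the file headers. Of the 80 samples, 64 are RNA or DNA libraries and 16 are mapping libraries, which enter only through the positions. The submitters' processing notes name Bowtie2 2.0 and mm9, the calling of barcodes being not given in the sources used here. Positions are those of the deposited table, and no mm9 annotation was used, so genes are not named. The table had 0 unused columns of sample values.

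A reporter entered with 10 or more DNA counts in all 8 DNA libraries. Per pool, edgeR 4.0.16 in R 4.3.3 modelled assay, dose and the assay by dose interaction over 8 RNA and 8 DNA libraries, scaled by TMM for RNA and DNA apart, with p-values adjusted by Benjamini-Hochberg over the pool's reporters. Beside an edgeR change, the SE is |log2 change|/sqrt(F). DESeq2 1.42.0 served as an alternative. Levels, windows, chains and pairs were computed with Python 3.11.15, numpy 2.4.6 and pandas 2.3.3. The model was tested on simulated counts. Members, groups and lists were chosen with earlier results of these data known.

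Named reporters are the 10 strongest at dox 0 and at dox 100, the 5 lowest at dox 0, the 5 largest called changes each way at dox 100 and 3 at dox 0.1, members of the chains with the highest kept and lost shares, the 5 closest pairs with different outcomes, pairs 1 bp apart, the 3 highest and lowest windows and the reporters next to the DNA minimum. D_105322645, A_20455417, C_20511968 and the neighbours of A_154717685 were named after their values were seen. Same-numbered libraries come from the same split of a pool per the labels, so numbers pair the samples. Deviations from the group means of same-numbered libraries correlated by -0.05 to 0.05 over 24 pairs of doses, 0 of them over 0.1. Alternatives on density, on the region and without pool A were added after the data were seen.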

Additional observations from a re-analysis of the deposited data

Results flagged for a closer look

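Pool A stood apart from the other 3 pools in 3 measures of chromosome 2, in each of which its gap to the nearest pool was a large part of the whole range. Its mean level minus that of the other chromosomes was -0.12 at dox 0 and -0.16 at dox 0.01, where pools B, C and D lay between 0.28 and 0.34. Its lost share at dox 100 exceeded that of the other chromosomes by 9.41 percentage points, where the other pools lay between -1.67 and -0.95. Such a gap is found by chance in about 1 in 20 groups, and 29 groups of 4 pools were looked at. These groups share pools and reporters, so the 3 measures are not separate evidence. The gaps at dox 0 and dox 0.01 are of the same difference.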

How the results depend on the processing

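At dox 100, DESeq2's size factors gave 56 higher and a median log2 change of -5.24, library totals 44 and -5.39, and a DNA minimum of 100, with fewer reporters tested, 267 lower, a median of -3.15 and 233 lost. At dox 0.1 the size factors gave 41 higher, 247 lower and -1.79, library totals 37, 274 and -1.96, DESeq2's Wald test 318 lower and -1.79, and DNA as an offset 47 higher and 80 lower. At dox 0.01 the Wald test gave 2 higher and 4 lower, and the median was -0.32 with size factors, -0.31 with library totals, -0.32 with the Wald test, -0.11 without a DNA minimum, -0.068 with one of 100 and -0.13 with the offset. The replicate block gave 66 higher and 135 lower at dox 0.1, 84 and 402 at dox 100 and a median of -0.12 at dox 0.01, and moved no count of calls by 1.5 times. Leaving out 1 culture gave medians of -0.14 to -0.087 at dox 0.01, -1.14 to -0.74 at dox 0.1 and -7.61 to -4.42 at dox 100, and at dox 0.1 41 to 68 higher and 93 to 195 lower. B_137118207 at dox 0.1 ran over -2.46 to 8.12. Chromosome 2 minus the others at dox 100 was -0.088 over 1 Mb block means, -0.092 without pool B and -0.014 without pool D. Plus minus minus strand at dox 0.01 was -0.058 over medians, -0.026 over 1 Mb blocks and -0.00094 without pool D, and at dox 100 -0.010 without pool D. The difference in lost share was -1.41 without pool A and -0.485 to 0.926 without 1 culture, and that in kept share -0.559 without pool B and -0.926 to 0.485. Gaps of 20 kb gave 1 chain, 0 of them with at least 50% kept and 1 with at least 50% lost, and gaps of 100 kb 25, 13 and 7. The r under 10 kb was 0.27 to 0.33 at dox 0 and 0.519 to 0.611 at dox 100 without 1 culture, and at dox 0.1 0.579 with a pseudocount of 0.1, 0.659 with 5, 0.602 between pools and 0.557 to 0.594 without 1 culture. The cause of these shifts was not tested, and even by counting error alone a count of 0 cannot be told from up to 3 counts at this depth.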
